A study of Homo sapiens with 4 samples.

Results

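The Arp2/3 complex is the machine that starts new actin filaments as branches on existing ones. Its subunits were followed here in Z138 cells, a human line established from mantle cell lymphoma (a cancer of B cells), after lowering of the transcription factor SOX11. All probe sets of the array whose platform annotation gives exactly 1 gene symbol among ACTR2, ACTR3, ARPC1A, ARPC1B, ARPC2, ARPC3, ARPC4, ARPC5 and ARPC5L were taken. These were 20 of 54675 probe sets, and they covered 8 of the 9 genes. The probe set table used here pairs no probe set with ACTR2 alone, so ACTR2 was not analysed here. A further 4 probe sets that name ARPC4 together with other genes were left out by the same rule.

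The study used 4 Affymetrix U133 Plus 2.0 arrays of total RNA from stably transduced Z138 cells, 1 per lentiviral short hairpin construct. The control group held 2 scrambled hairpins, shControl.1 and shControl.2, and the knockdown group held 2 SOX11-directed hairpins, named shSOX11.1 and shSOX11.3. No genotype or treatment other than the hairpin is given, and the labels do not say that the arrays came from separate cultures of a construct, so the spread between the 2 arrays of a group mixes construct, culture and measurement. A different hairpin on each array also means that a change seen with 1 hairpin only cannot be told apart from a change of that culture or array.

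Branched actin networks push the cell edge forward in migrating lymphocytes, form the contact zone where a B cell gathers its antigen receptors, and drive uptake of membrane. The complex lies idle until factors of the WASP and WAVE families bind it, whereupon ACTR2 and ACTR3, which resemble actin itself, act as the start of the new filament. ARPC2 and ARPC4 form the core that clamps the mother filament. ARPC1 contacts the activators, ARPC3 joins ACTR3 to the core, and ARPC5 tethers the ACTR2 side. ARPC1 exists as the paralogues ARPC1A and ARPC1B, and ARPC5 as ARPC5 and ARPC5L. ARPC1B is the form that blood cells rely on, and its inherited loss causes an immune deficiency.

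All 3 probe sets of SOX11 itself read lower in both knockdown samples. The brightest read 335 and 339 there against 797 and 787 in the controls, which is 42.5% of the control level. The B-cell marker MS4A1 stood between 6823 and 8358 and CCND1, the cyclin gene activated in this lymphoma, between 8610 and 10317 on the 4 arrays, and 5 of 7 B-cell markers lay above the signal threshold of 24.8 on all arrays. The exceptions, CD37 and CD22, were above it on 2 and 3 arrays. The groups were apart at 4 of the 7 B-cell markers, all lower under knockdown, where 24.9% of all genes were apart and lower. Of these markers 3 had an unadjusted limma p under 0.05, against 4.66% of all genes lower at that level. Among the 3, CD22 read 48.2 and 67.0 in the controls, 39.8 with shSOX11.1 and 4.94 with shSOX11.3, the last far under the threshold. PAX5, a B-cell identity factor, read 1845 and 1666 in the controls, 646 with shSOX11.1 and 1450 with shSOX11.3. CD79B, a part of the antigen receptor, read 916 and 992 against 535 and 658. The summed B-cell signal was 11572 and 10943 in the controls and 8424 and 9922 under knockdown. Of the T and NK cell markers 2 of 10 (CD3G and CD247) lay above the threshold on all arrays and 3 on none. Of the myeloid markers 0 of 7 did on all and 3 on none. The summed signals were 403 and 414 in the controls against 349 and 342 under knockdown for T and NK cells. For myeloid cells they were 96.2 and 104 against 148 and 117. Of the epithelial and stromal markers 4 of 9 lay above the threshold on all arrays and 3 on none. Their summed signal was 8246 and 7720 in the controls and 8554 and 7383 under knockdown. Among them VIM read between 6377 and 7364 and COL1A1 between 881 and 1063. Of the erythroid markers 1 of 2 (HBB) lay above the threshold on all arrays, between 29.1 and 43.1. The beta-actin controls of the array, which compare the 3′ with the 5′ end of that transcript and so reflect how intact and fully labelled the RNA was, gave a 3′/5′ ratio of 11.6 for each control hairpin, 7.29 for shSOX11.1 and 5.31 for shSOX11.3. The same ratio of the GAPDH controls was flat, at 0.978 and 1.06 in the controls and 1.01 and 1.03 under knockdown. The part of the beta-actin ratio in the values below was not tested.

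ARPC1A was the subunit with the widest separation of the groups. The paralogues ARPC5 and ARPC5L differed in the same sense under both hairpins at their brightest probe sets. The promoters of these genes are shown first. They are the 250 bases before the gene's start on the gene's own strand, 5′ to 3′, from RefSeq (GRCh38.p14). Capitals mark the GC box GGGCGG and the CCAAT box, each searched on both strands. The sources used here name no build for the array data, and these coordinates belong to the RefSeq table alone.
ARPC1A chr7:99325648-99325897 (plus strand): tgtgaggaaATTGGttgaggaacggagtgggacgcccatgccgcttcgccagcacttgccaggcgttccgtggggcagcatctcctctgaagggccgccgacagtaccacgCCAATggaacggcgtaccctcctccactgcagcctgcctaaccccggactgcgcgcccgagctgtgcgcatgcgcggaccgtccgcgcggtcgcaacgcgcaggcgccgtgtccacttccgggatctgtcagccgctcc
ARPC5 chr1:183635784-183636033 (minus strand): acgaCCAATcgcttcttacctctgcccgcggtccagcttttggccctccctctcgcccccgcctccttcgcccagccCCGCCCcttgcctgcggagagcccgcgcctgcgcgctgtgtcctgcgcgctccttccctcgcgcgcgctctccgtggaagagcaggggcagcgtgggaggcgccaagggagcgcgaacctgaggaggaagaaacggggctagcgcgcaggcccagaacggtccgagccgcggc
ARPC5L chr9:124861880-124862129 (plus strand): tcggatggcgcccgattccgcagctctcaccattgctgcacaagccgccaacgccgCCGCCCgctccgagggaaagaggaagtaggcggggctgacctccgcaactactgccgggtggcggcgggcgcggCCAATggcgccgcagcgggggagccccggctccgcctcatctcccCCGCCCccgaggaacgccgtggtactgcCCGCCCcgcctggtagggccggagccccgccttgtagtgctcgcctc
The RefSeq table held 11 promoter windows for 8 of the 9 subunit genes, with 3 for ACTR3 and 2 for ARPC2, some of which overlap, and none for ARPC1B. A GC box lay in 9 of the 11 windows, against 42.6% of 35116 windows of the same length, and a CCAAT box in 4 of 11, against 11240 of the 35116. The ARPC1A window had 2 CCAAT boxes and no GC box, the ARPC5 window 1 of each, and the ARPC5L window 1 CCAAT box and 3 GC boxes. The letters ACAAAG or ACAATG, the core that SOX proteins bind, were searched on both strands. They were in 0 of the 11 windows, against 21.2% of all windows. The CArG box, bound by the serum response factor that regulates many actin genes, was in 0 of 11, against 1.16%. It is so rare over all windows that its absence from 11 says little. Between 57.6% and 73.6% of the bases in these windows were G or C, where the median over all windows was 58.0%.

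Of the 20 probe sets 19 were kept for testing, since at least 2 arrays read above 24.8 (the median of all values). The other, an ARPC5 probe set (1569325_at), lay between 9.75 and 22.9 on the 4 arrays and was below the threshold on all of them. The family was chosen by the ARPC1A signal, which was already known to separate the groups on these arrays, so the differences between shSOX11 and shControl below describe the arrays and are not tests of the family.

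**Figure D1:**
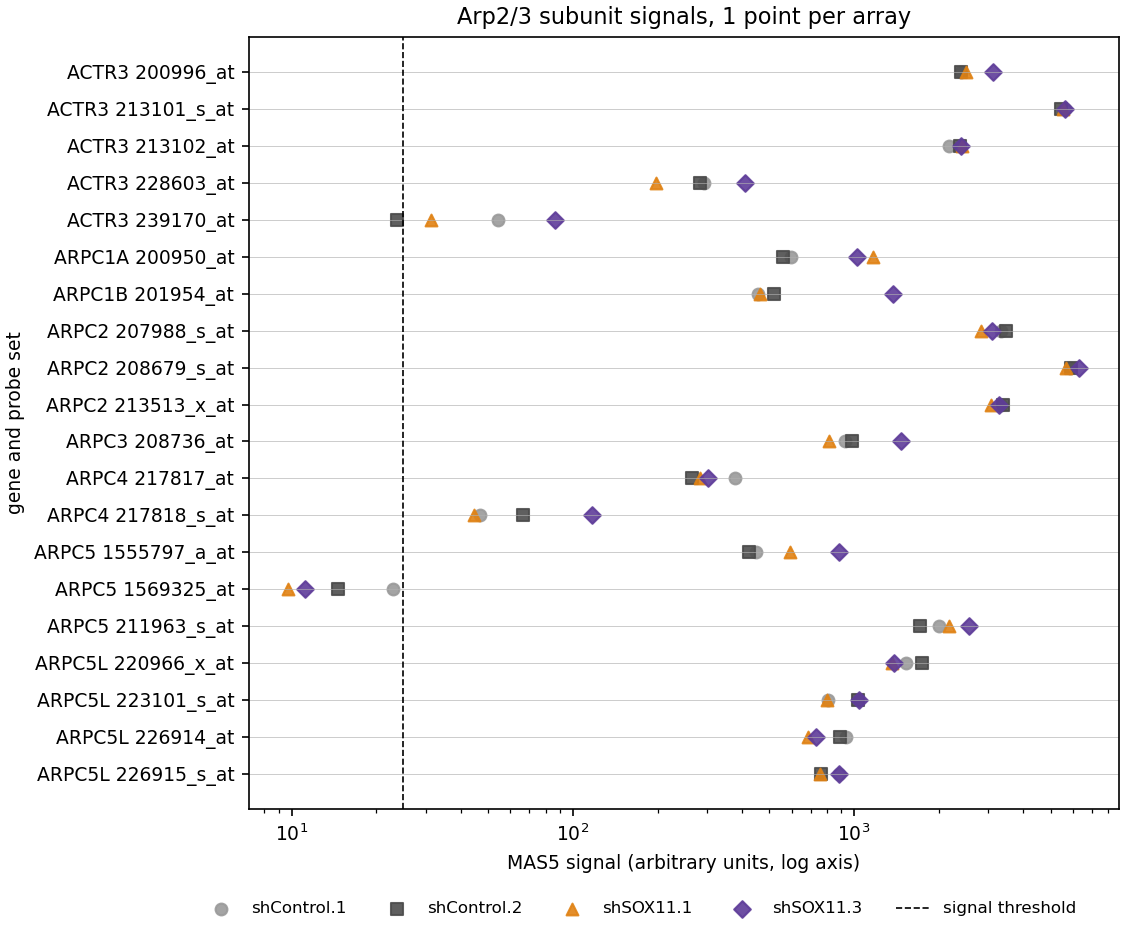
MAS5 signal (log axis) of all 20 Arp2/3 probe sets on the 4 arrays, 1 point per array, with the signal threshold as a dashed line. ARPC1A lies at 596 and 560 in the controls and at 1169 and 1024 under knockdown, while most other subunits overlap between groups or spread mainly by shSOX11.3.

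ARPC1A, the beta-propeller subunit that contacts the activators, had the widest separation of the groups in the complex. Its signal was 596 on shControl.1 and 560 on shControl.2, and with the SOX11 hairpins 1169 (shSOX11.1) and 1024 (shSOX11.3). Both knockdown arrays stood above both control arrays, at about the same height. The log2 means were 9.17 ± 0.06 and 10.10 ± 0.14 (SD, n = 2 each), a log2 change of 0.92 with a standard error of 0.16, or 1.89-fold higher. ARPC1A rests on a single probe set, and RefSeq lists 4 pseudogene copies of it, whose transcripts such a probe set might also detect.

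ARPC1B, its paralogue, followed another pattern. Its signal was 456 and 518 in the controls, 464 with shSOX11.1 and 1372 with shSOX11.3. The shSOX11.1 array lay between the control arrays and only shSOX11.3 stood above them, at 2.96 times the signal of shSOX11.1. The mean log2 change of 0.72 (standard error 0.41) therefore came from shSOX11.3 alone, where ARPC1B was higher than the control mean by 1.497 on the log2 scale, against -0.07 on shSOX11.1. Like ARPC1A, ARPC1B rests on a single probe set, and RefSeq lists 1 pseudogene of it.

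Set side by side, the paralogues changed unequally under each hairpin, but in opposite senses. With shSOX11.1 the log2 change of ARPC1A was 1.02 and exceeded that of ARPC1B by 1.08. With shSOX11.3 it was 0.83 and fell short of that of ARPC1B, a difference of -0.67. Between the control arrays this difference of the paralogues lay at 0.14 and -0.14 around their mean. Averaged over the hairpins the log2 change of ARPC1A minus that of ARPC1B was 0.21 with a standard error of 0.89, so the mean difference was smaller than the spread between arrays. These figures compare changes and say nothing of which paralogue is more abundant, since signals of different probe sets are not on a common scale.

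**Figure D2:**
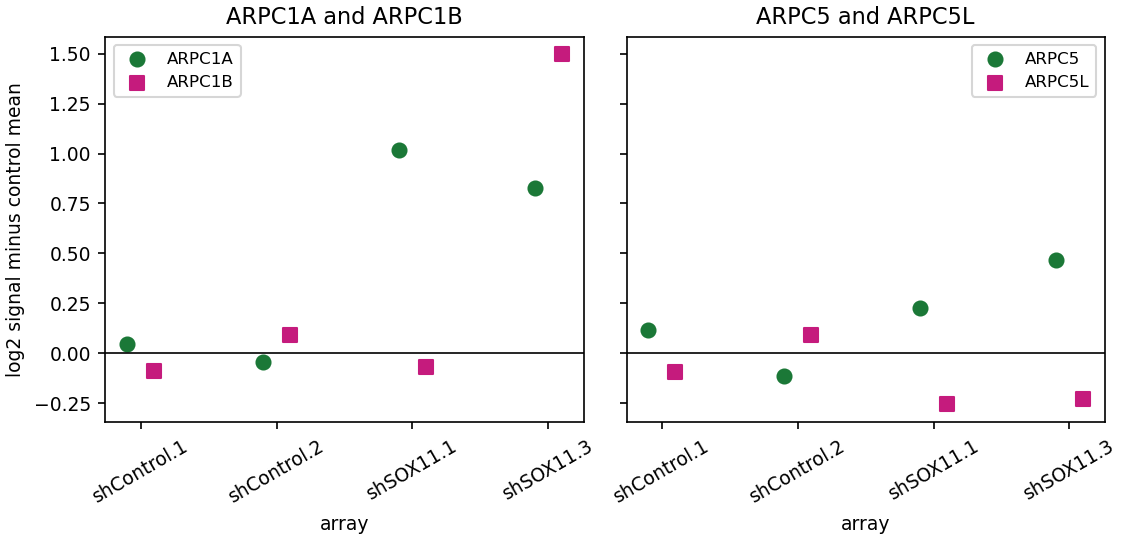
Log2 signal minus the mean log2 signal of the shControl arrays for ARPC1A and ARPC1B (left) and ARPC5 and ARPC5L (right), at the brightest probe set of each gene, 1 point per gene and array. ARPC1A is high on both shSOX11 arrays and ARPC1B on shSOX11.3 only, while ARPC5 lies above and ARPC5L below the control mean on both shSOX11 arrays.

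ARPC1A and ARPC1B are direct neighbours among the protein-coding genes of human chromosome 7. Of the 4 protein-coding genes on each side, TRRAP, SMURF1, PDAP1 and BUD31 had a probe set past the filter. Their log2 changes at the brightest probe set were -0.13, 0.04, -0.05 and -0.25. At these probe sets SMURF1 alone stood above both control arrays on shSOX11.3 (192 against 173 on each), and BUD31, a splicing factor, was lower on both shSOX11 arrays (1883 and 1795 against 2283 and 2079). A dimmer probe set each of SMURF1 and TRRAP had groups apart in the higher direction. SMURF1 at 232665_x_at read 87.3 and 47.5 in the controls and 119 and 118 under knockdown, a log2 change of 0.88 (standard error 0.32). TRRAP at 214908_s_at read 64.5 and 31.1 against 69.4 and 71.7, a change of 0.66 (standard error 0.39). The log2 signal of shControl.2 minus that of shControl.1 was -0.88 and -1.05 at these probe sets. SMURF1 overlapped between groups at 1559426_at and 215458_s_at, with changes of 0.04 and -0.35. A name ending in _x_at marks possible cross-hybridization to other transcripts. MYH16 was under the threshold on all arrays, and KPNA7, PTCD1 and ATP5MF-PTCD1 had no probe set of their own in the annotation used.

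ARPC5, the small subunit that tethers ARPC1 and ACTR2 to the rest, was higher on both shSOX11 arrays at both of its kept probe sets. At the brighter (211963_s_at) the signals were 2006 and 1711 in the controls and 2170 and 2558 under knockdown, a log2 change of 0.35 (standard error 0.16). At the other (1555797_a_at) they were 447 and 424 against 593 and 881, a change of 0.73 (standard error 0.21) or 1.66-fold. At both, the groups did not overlap and shSOX11.3 was the higher of the knockdown arrays.

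ARPC5L, the alternative to ARPC5, did not share this. At its brightest probe set (220966_x_at) the signals were 1530 and 1742 in the controls and 1367 and 1392 under knockdown, a log2 change of -0.24 (standard error 0.15). At 226914_at they were 938 and 892 against 686 and 735, a change of -0.37 (standard error 0.16). The groups were apart, with knockdown below control, at these 2 probe sets. At 223101_s_at and 226915_s_at the groups overlapped, with changes of 0.0040 and -0.01. The name of the brightest ends in _x_at, which marks possible cross-hybridization to other transcripts.

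The log2 change of ARPC5 minus that of ARPC5L was 0.59 with a standard error of 0.23. It was 0.48 with shSOX11.1 and 0.70 with shSOX11.3, against 0.21 and -0.21 for the control arrays around their mean. Unlike the ARPC1 pair, the ARPC5 pair thus differed in the same sense under both hairpins at the brightest probe sets. Without probe sets ending in _x_at ARPC5L is represented by 223101_s_at, with its change of 0.0040. There it stood at -0.18 with shSOX11.1 and 0.19 with shSOX11.3 against the control mean, and the control arrays differed by 0.36. The difference of the pair therefore depends on the ARPC5L probe set used.

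ACTR3, which with ACTR2 forms the start of the daughter filament, had 5 kept probe sets. The brightest (213101_s_at) read 5641 and 5434 in the controls and 5511 and 5606 under knockdown, a log2 change of 0.01 (standard error 0.13). At 200996_at the signals were 2401 and 2397 against 2509 and 3111, and at 213102_at 2173 and 2384 against 2415 and 2391. The knockdown arrays lay above the control arrays at both of these, by log2 changes of 0.22 and 0.08. After quantile normalization the groups overlapped at 213102_at and stayed apart at 200996_at. After centring on each array's median they were apart, with knockdown higher, at 213101_s_at, 200996_at and 213102_at. The dimmer 228603_at went apart by hairpin, at 294 and 283 in the controls, 197 on shSOX11.1 and 409 on shSOX11.3. At 239170_at the signal was 54.2 and 23.6 against 31.4 and 86.1, near the threshold, where MAS5 signals are noisy. RefSeq lists 3 pseudogenes of ACTR3.

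ARPC2, of the core, differed little between the arrays. Its brightest probe set (208679_s_at) read 5868 and 5912 in the controls and 5655 and 6317 under knockdown, a log2 change of 0.02 (standard error 0.14). At 207988_s_at the signals were 3333 and 3483 against 2822 and 3086, and at 213513_x_at 3320 and 3382 against 3070 and 3267. Both lay lower on the knockdown arrays, by log2 changes of -0.21 and -0.08. After quantile normalization or centring on each array's median the groups overlapped at 213513_x_at and stayed apart at 207988_s_at.

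ARPC4, the other core subunit, overlapped between groups at both probe sets. The brighter (217817_at) read 378 and 266 in the controls and 284 and 303 under knockdown. The dimmer (217818_s_at) read 46.6 and 66.3 against 44.4 on shSOX11.1 and 117 on shSOX11.3. Here the control arrays differed from each other by 0.51 in log2 at each probe set, in opposite directions.

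ARPC3, which joins ACTR3 to the core, resembled ARPC1B. Its signals were 926 and 984 in the controls, 816 on shSOX11.1 and 1468 on shSOX11.3. It was lower than both controls with the first hairpin and higher than both with the other, and the mean log2 change of 0.20 had a standard error of 0.25. RefSeq lists 5 pseudogenes of ARPC3.

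**Figure D3:**
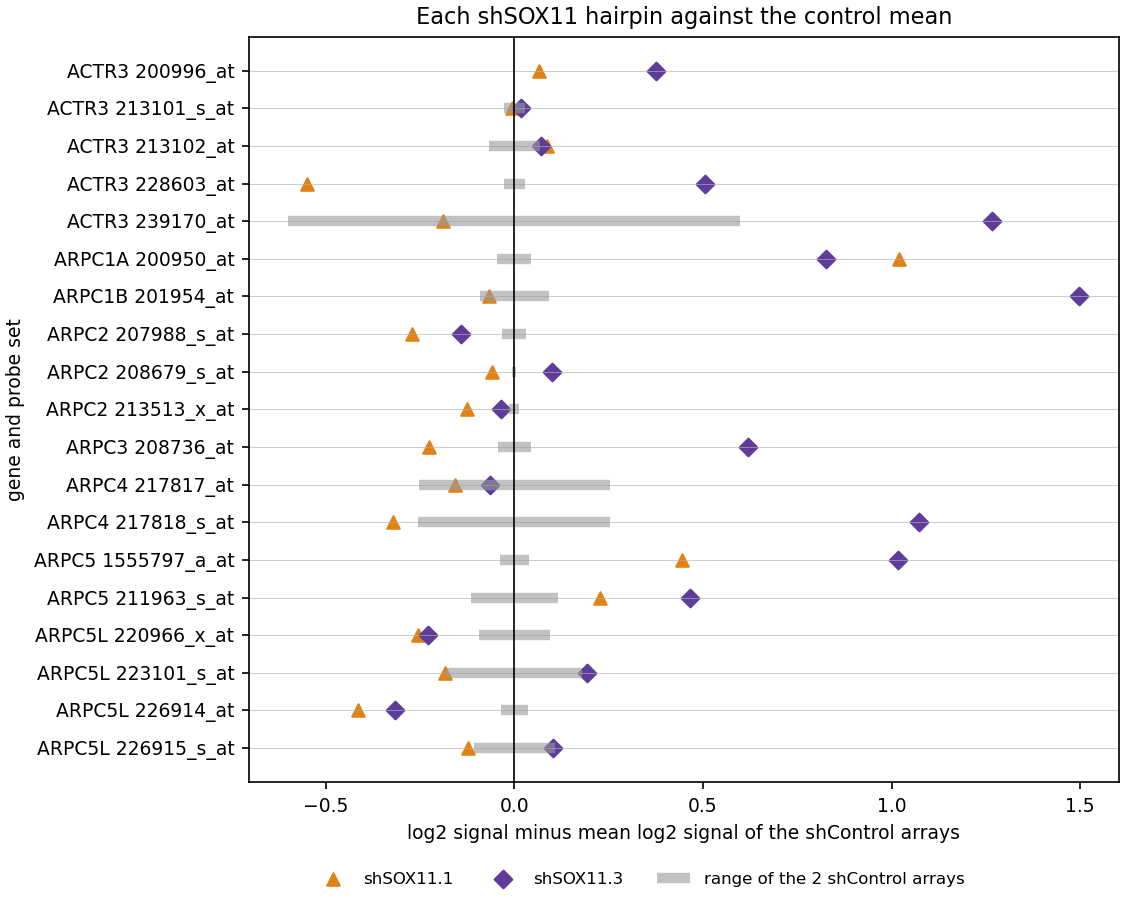
Log2 signal of shSOX11.1 (triangles) and shSOX11.3 (diamonds) minus the mean of the shControl arrays for the 19 kept Arp2/3 probe sets, with the range of the 2 shControl arrays as grey bars. The diamond lies to the right of the triangle at 17 of 19 probe sets, and ARPC1A is an exception.

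Counted over the complex, both shSOX11 arrays were above both shControl arrays at 5 of 19 probe sets (26.3%), where 18.9% of all 28202 kept probe sets were, and below at 4 (21.1%), where 21.8% of all were. These shares are near those of all probe sets. In each of the 4 pairings of a knockdown with a control array, at least 1.5-fold higher was 1 probe set, that of ARPC1A, against 1.45% of all (408), and 0 were 1.5-fold lower, against 1.87% (528). With arrays centred on their medians 59.9% of the probe sets past this size rule were higher instead of 43.6%, and ARPC1A was still the only subunit higher by this rule. At the brightest probe set of each gene the median log2 change of the 8 subunits was 0.11, against -0.06 over all 11938 genes, with 6 higher and 2 lower. This median was -0.063 for the first hairpin (shSOX11.1) and 0.28 for shSOX11.3.

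In limma, fitted over all 28202 kept probe sets, 0 of the 19 passed an adjusted p of 0.05, as did 0.00355% of all probe sets (1 probe set). The limma adjusted p of the subunits ran from 0.348 for ARPC1A to 0.997. At an unadjusted limma p under 0.05 there were 3 of 19: ARPC1A and ARPC5 (1555797_a_at) higher and ARPC5L (226914_at) lower, where 4.50% of all probe sets were higher and 3.76% lower at that level. With 2 arrays a group, the smallest p of an exact two-sided permutation test is 0.333.

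The hairpins against SOX11 differed from each other across the complex. The signal was higher on shSOX11.3 than on shSOX11.1 at 17 of 19 probe sets and for 7 of 8 genes at their brightest probe set, where 49.5% of all probe sets and 41.2% of all genes were. The exceptions were ARPC1A and, by 0.01 in log2, the ACTR3 probe set 213102_at. The median difference of the 19 was 0.23 in log2, against -0.0046 over all kept probe sets. At least 1.5-fold higher on shSOX11.3 were 5 of 19 (ARPC1B, ARPC3, 2 of ACTR3 and 1 of ARPC4), against 14.7% of all, and 0 were 1.5-fold lower, against 11.8%. Between the control arrays the counts were even, with 9 of 19 higher on shControl.2, where 50.0% of all were, and a median difference of -0.0027. SOX11 itself read 335 with shSOX11.1 and 339 with shSOX11.3 at its brightest probe set, 203 and 135 at 204915_s_at, and 121 and 164 at 204913_s_at, so its probe sets did not order the hairpins alike. Each hairpin has 1 array, so the difference between hairpins has no replicate check, and probe sets of 1 gene share its transcript and are not independent. The beta-actin 3′/5′ ratio was lower for shSOX11.3 than for shSOX11.1, at 5.31 against 7.29, whereas the GAPDH ratio was 1.03 against 1.01.

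Genes that act on the complex were taken from lists of 92 actin genes, of which 74 had a kept probe set. In these lists 0 genes passed limma's adjusted p of 0.05, and 5 were higher and 7 lower at an unadjusted p under 0.05, where 3.06% and 4.66% of all genes were. The groups were apart for 17 genes that were higher and 24 that were lower, against 16.2% and 24.9% of all genes. The median log2 change of the 74 was -0.07. On shSOX11.3 36 of the 74 were higher than on shSOX11.1 and the median difference was -0.04, so the counts over this wider set were nearly even.

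Among the 8 measured WASP and WAVE family activators and their partners, 6 were higher and 2 lower in the mean, with a median of 0.07 and 0 at an unadjusted limma p under 0.05. WHAMM, an activator at internal membranes, read 77.1 and 84.1 in the controls and 91.6 and 146 under knockdown. WASL, the widely expressed N-WASP, read 249 and 272 against 317 and 321, and WASF2, a WAVE protein, 271 and 255 against 251 and 211. WAS, the form of blood cells, had a log2 change of 0.04 (standard error 0.16). The 4 measured genes of the WASH complex, which activates Arp2/3 on endosomes, lay between 0.05 and 0.28. WASHC2C and WASHC5 had groups apart, with changes of 0.28 (standard error 0.17) and 0.24 (standard error 0.19), where 16.2% of all genes were apart and higher. The WASHC2C probe set, 211068_x_at, is of the kind marked for possible cross-hybridization.

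In the WAVE regulatory complex 3 of 6 genes were higher and 3 lower. CYFIP2, a subunit of this complex, read 1181 and 1252 in the controls and 982 and 784 under knockdown, a log2 change of -0.47 (standard error 0.17). ABI1 read 753 and 666 against 776 and 1060, and NCKAP1L, the HEM1 protein of blood cells, 397 and 336 against 254 and 352, with groups overlapping.

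Proteins that stabilise or undo branches differed among themselves. Cortactin (CTTN), which stabilises branches, read 101 and 120 in the controls and 190 and 197 under knockdown, 1.75-fold higher with a log2 change of 0.81 (standard error 0.21). GMFG, the blood-cell form of glia maturation factor, which dissolves branches, read 591 and 622 against 426 and 357, a change of -0.64 (standard error 0.18). AP1AR (gadkin), which binds Arp2/3 at endosomes, read 180 and 193 against 230 and 335. In none of these did the groups overlap, and their limma adjusted p lay between 0.460 and 0.566. They were named for the smallest p of their list, so this separation follows largely from the choice. Over the 6 measured genes of the list the groups were apart for 3 higher and 1 lower, against 16.2% and 24.9% of all genes. GMFB, the paralogue of GMFG, went the other way from GMFG. It read 1200 and 1403 in the controls and 1614 and 1701 under knockdown, a change of 0.35 (standard error 0.16) with groups apart. At NCKIPSD and HCLS1 the groups overlapped. Of the 7 coronins, actin-binding proteins that include regulators of Arp2/3, 6 were lower with a median of -0.62. CORO2B fell short of control most, with a log2 change of -1.88 (standard error 0.27), and CORO1A, the main coronin of blood cells, read 959 and 832 against 668 and 483.

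Other lists held further nucleators and genes of filament turnover and capping. Of 12 formins and other nucleators, which make unbranched filaments, 8 were lower with a median of -0.20. FMNL2 read 223 and 191 in the controls and 139 and 128 under knockdown, FHOD1 read 156 and 141 against 118 and 98.3, and DAAM2, under the threshold on both shSOX11 arrays, was at least 1.49-fold lower. Of 17 genes of filament turnover and capping 12 were lower with a median of -0.16, among them the VASP relative EVL (-0.57). The capping factors went both ways. TWF1 and CAPZA2 were higher (0.72 and 0.59), and CAPG, TWF2, CAPZA1 and CAPZB were lower (-0.60, -0.35, -0.16 and -0.11). Over all genes 41.9% were higher in the mean, and whether these lists differ from all genes was not tested.

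Actin itself and its relatives outside the complex had log2 changes between -0.44 and 0.26. ACTB read 10181 and 10071 in the controls and 9883 and 7500 under knockdown, a log2 change of -0.23 (standard error 0.16). The ACTR3 paralogue ACTR3B, at 157 and 123 against 124 and 156, had a change of 0.0015 (standard error 0.24). ACTR5 and ACTR6, which belong to chromatin complexes of the nucleus, were at -0.44 and 0.26. Of the 8 genes of this list 5 were higher in the mean, with a median of 0.01.

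**Figure D4:**
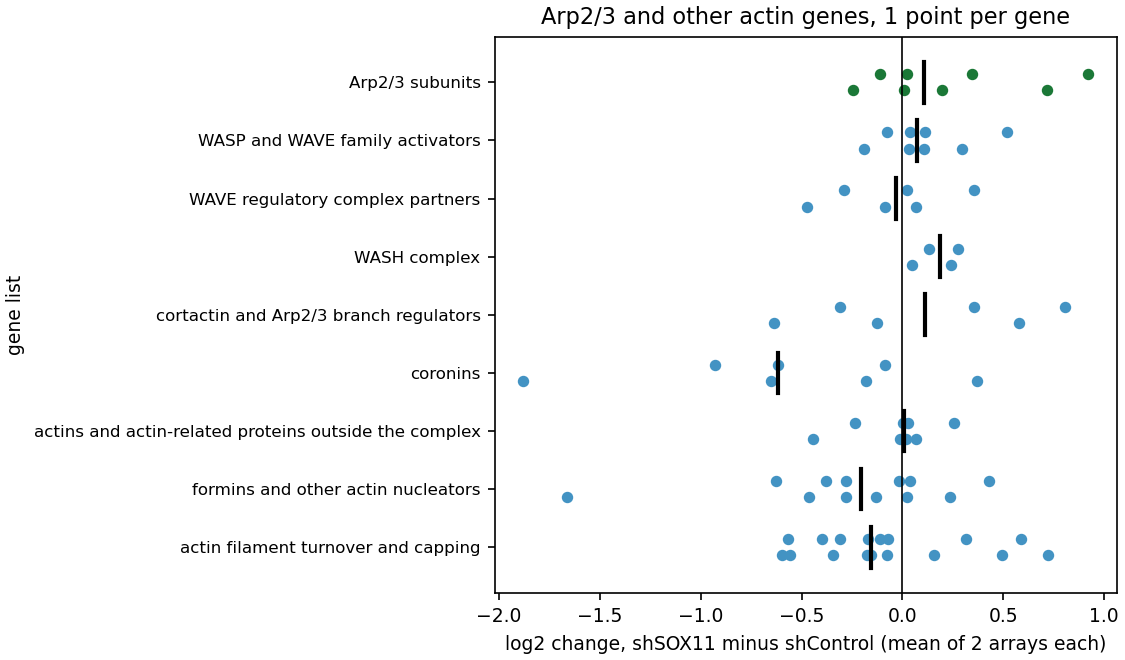
Log2 change (mean of the 2 shSOX11 arrays minus mean of the 2 shControl arrays) at the brightest kept probe set of each gene, for the Arp2/3 subunits (green) and the actin gene lists (blue), 1 point per gene and black bars for medians. The Arp2/3 median is 0.11 and the coronin median -0.62.

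By Euclidean distance of the log2 signals over the 4 arrays, after subtracting each gene's mean, the 5 genes nearest to ARPC1A were ZSWIM5, KRABD1-AS1, LINC00266-1, OXCT1 and GPR21. All but OXCT1 were under the signal threshold on both shControl arrays and passed the filter only through the knockdown arrays, so no likeness is read from them. They were at least 1.18-fold to 1.34-fold higher under knockdown. OXCT1, an enzyme of ketone body use, was the 1 gene among them measured on all arrays, at 226 and 211 against 435 and 342, a log2 change of 0.82 (standard error 0.20). None of the other Arp2/3 subunits was among the 5.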

How the data were processed

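Affymetrix U133 Plus 2.0 arrays of 4 samples were analysed, 1 array per hairpin, grouped by the hairpin given in the labels. The deposited values are the authors' signal intensities, linear and 1 per probe set, from MAS5 in Affymetrix Expression Console, both named in the submitters' processing notes, with versions and settings not given in the sources used here. Their 2% trimmed mean was 150.0 on every array. MAS5 subtracts mismatch signal, which makes dim signals noisy, and the number of arrays limits the precision.

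Log2 of the signal was used with no pseudocount. A probe set was kept where at least 2 arrays read above 24.8 (the median over all arrays), which left 28202 of 54675. Groups were compared with limma 3.58.1 in R 4.3.3 (lmFit, eBayes with intensity trend, two-sided, Benjamini-Hochberg over the kept probe sets). The fit had 2 residual degrees of freedom, 8.67 after moderation. It was tried on arrays simulated with independent noise and no hairpin or culture component, which cannot show how it handles that variation. Each gene was represented by its brightest kept probe set. Paralogues were compared by the difference of their log2 signals per array, with the standard error taken over the 4 arrays.

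All members were named with every probe set, and from each actin list up to 3 genes with the smallest p, besides the neighbours of ARPC1A and ARPC1B, the 5 genes nearest to ARPC1A and the target. WAS and ACTR3B, from the same lists, were added after their values were seen, as the blood-cell form and the paralogue. PAX5, CD79B and CD22, of the B-cell markers, and the dimmer SMURF1 and TRRAP probe sets were likewise added after their values were seen. The same holds for VIM, COL1A1 and HBB, of the other marker lists. So were GMFB, NCKIPSD, HCLS1, CAPG, TWF2, CAPZA1 and CAPZB, from the actin lists. The members and lists were chosen with earlier results of these data known. Of 41091 probe sets with 1 symbol, 1801 with several and 11721 with none, only the first were named. Promoters were matched by symbol to RefSeq. One of the actin lists is counted in the totals over all actin genes and is otherwise not reported here.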

Additional observations from a re-analysis of the deposited data

How the results depend on the processing

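The choices tried beside the settings above changed the scaling (quantile normalization, median centring), the pseudocount (32), the filter (none, or the 65th percentile), the probe set rule (averaging a gene's probe sets, or no probe sets ending in _x_at), the variance model and the arrays used. Under all of them that keep the 4 arrays, the log2 change of ARPC1A lay between 0.89 and 1.00 and those of ARPC1B and of the ARPC1A minus ARPC1B difference moved by less than the spread between replicates. Leaving out 1 array in turn gave 0.83 to 1.02 for ARPC1A, -0.07 to 1.497 for ARPC1B, -0.67 to 1.08 for their difference and -0.063 to 0.28 for the median of the subunits, with the lowest and highest of the last 3 coming from the fits without a shSOX11 array. The count of subunit probe sets with groups apart was then 12 to 16 of 19, where 64.4% to 77.2% of all probe sets were apart, since fewer pairs have to agree. It was 4 of 8 genes when a gene's probe sets were averaged, where 41.8% of all genes were. With that rule 7 of 8 genes were higher on shSOX11.3 than on shSOX11.1, and under the other settings tried for this count, chosen after seeing the data, it was 15 of 17 probe sets without those ending in _x_at, 16 of 18 with the 65th percentile filter, 18 of 20 with no filter and 18 of 19 after quantile normalization or median centring. ARPC5L turned to 0.0040 without probe sets ending in _x_at. With averaged probe sets ARPC2 turned to -0.09 and ARPC4 to 0.13, and ACTR3 and ARPC5 moved to 0.16 and 0.54. Quantile normalization and median centring moved ACTR3 to 0.12 and 0.09 and ARPC2 to 0.13 and 0.10. ARPC4 turned to 0.14 without shControl.1, and ACTR3 to -0.02 without shControl.2 and -0.0065 without shSOX11.3, where ARPC2 and ARPC3 were at -0.06 and -0.23.

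Over all probe sets 1 passed limma's adjusted p of 0.05, and 0 did with median centring, no filter, the 65th percentile filter, averaged probe sets, no _x_at probe sets or limma without the trend. At an unadjusted p under 0.05 there were 1269 higher and 1060 lower. Without 1 array the count ran from 0 to 1585. The fit without shSOX11.1 then called ARPC1A, ARPC1B, ARPC3 and ARPC5 and the fit without shSOX11.3 called ARPC1A, but both assume that the lone array varies like the shControl arrays and have 1 residual degree of freedom. The 936 probe sets 1.5-fold apart on all pairs became 226 with a pseudocount of 32, 4661 with no filter, 376 with the 65th percentile filter, 321 genes with the mean rule, 226 at 2-fold and 2421 to 4144 without 1 array.

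No paired analysis was possible because the groups share only hairpin number 1, which names different constructs. Dim probe sets such as 239170_at and 217818_s_at carry the widest errors, and genes without a probe set of their own are not analysed here.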
